A study of Mus musculus with 30 samples.

Results

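Integrins are the receptors by which a cell holds the matrix around it, and 10 genes of muscle adhesion were followed here through 4 tissues of the Mtm1-/y mouse. The genes are the β subunits Itgb1, Itgb5 and Itgb3, the α subunits Itga7, Itga5, Itga6, Itgav, Itga3 and Itga1, and Itgb1bp2, which encodes melusin, a muscle protein that binds the tail of integrin β1. They were taken by their symbols, and all 10 were among the 36103 genes of the deposited table. Mtm1 encodes myotubularin, a phosphatase of the phosphoinositides on endosomes, along which integrin β1 is recycled to the surface, and its loss causes X-linked myotubular myopathy.

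RNA-seq counts were available for 30 libraries of untreated male mice aged 5 weeks on a pure 129Pas background, each from a whole gastrocnemius, diaphragm, heart or liver. WT littermates were compared with Mtm1-/y mice, in which the gene is disrupted in all tissues, so that an effect within a tissue and one of the state of the whole animal cannot be told apart. There were 4 WT and 4 Mtm1-/y libraries of the gastrocnemius and of the heart, 4 and 3 of the diaphragm, and 3 and 4 of the liver. The study asked how far the effect of the loss depends on the organ.

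Each library held between 24873817 and 44289343 assigned reads. Mtm1 lay between 15.9 and 26.9 counts per 1000000 (CPM) in the WT libraries and between 3.49 and 8.19 CPM in the Mtm1-/y libraries, with no overlap in any tissue, so the genotype labels held. The defining markers of each labelled tissue were present: 7 skeletal fibre genes summed to at least 45807 CPM in the WT diaphragm and 184520 CPM in the WT gastrocnemius, 6 cardiomyocyte genes to at least 40061 CPM in the WT heart, and 6 hepatocyte genes to at least 148019 CPM in the WT liver. The diaphragm libraries also held liver transcripts, with hepatocyte sums from 351 to 29936 CPM in WT and of 2181, 37349 and 631 CPM in Mtm1-/y diaphragm 1, 2 and 4. Mtm1-/y diaphragm 2 stood apart from the other 2 in the integrin values too, and the diaphragm results that turn on it are given with and without it. Each count comes from a bulk tissue, in which fewer cells of a type and less RNA per cell cannot be told apart.

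An integrin is a pair of 1 α and 1 β chain. The β1 chain pairs with α7 and α6, which bind laminins of the basement membrane, with α5, which binds the RGD motif of fibronectin, with α3, a laminin receptor, and with α1, a collagen receptor. Chain αv pairs with β1, β3 or β5 and binds vitronectin and other RGD proteins. In adult muscle fibres α7β1 is the main integrin and sits at the junctions with tendon and along the membrane, whereas α5 is prominent in developing and injured fibres. Counts per gene do not separate splice forms, such as the muscle form of β1 or the A and B forms of α7 and α6.

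On GRCm38 (mm10), Itgb1 lies at chr8:128685654-128733200 on the plus strand, Itga7 at chr10:128933818-128958282 on plus, Itga5 at chr15:103344286-103366763 on minus, Itga6 at chr2:71745616-71858416 on plus and Itgav at chr2:83724397-83806916 on plus. Itga3 lies at chr11:95044474-95076801 on minus, Itga1 at chr13:114953096-115101964 on minus, Itgb5 at chr16:33829665-33949338 on plus, Itgb3 at chr11:104608000-104670476 on plus and Itgb1bp2 at chrX:101449088-101453541 on plus. All 10 are annotated as protein coding. Itga1 shares 685 exonic bases with the gene model Gm49395 on its own strand, where a read that fits both is not counted. Itgav shares 634 exonic bases with Gm13684 and Itga7 shares 9 with Mettl7b on the opposite strand, and the strand setting of the counting is not given in the sources used here.

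The table of RefSeq promoters (GRCm38.p6) held a window for 6 of the 10 members. The 250 bases before the start are shown for 3 that rose in the gastrocnemius, Itgb1 (chr8:128685404-128685653, plus strand), Itga5 (chr15:103366792-103367041, minus) and Itgav (chr2:83724147-83724396, plus), and for the one that fell, Itga1 (chr13:115101965-115102214, minus). Each is written 5′ to 3′ in the direction of the gene, with GC boxes (GGGCGG on either strand) in capitals.
Itgb1: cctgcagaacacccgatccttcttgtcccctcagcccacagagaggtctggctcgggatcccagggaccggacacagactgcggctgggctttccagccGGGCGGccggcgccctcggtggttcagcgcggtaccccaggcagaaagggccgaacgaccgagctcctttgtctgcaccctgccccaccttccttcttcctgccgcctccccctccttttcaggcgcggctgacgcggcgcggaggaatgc
Itga5: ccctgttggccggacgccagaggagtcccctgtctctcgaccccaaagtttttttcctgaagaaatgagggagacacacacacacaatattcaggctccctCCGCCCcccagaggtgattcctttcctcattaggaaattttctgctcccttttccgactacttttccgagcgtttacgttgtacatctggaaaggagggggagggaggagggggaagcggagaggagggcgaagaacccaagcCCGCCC
Itgav: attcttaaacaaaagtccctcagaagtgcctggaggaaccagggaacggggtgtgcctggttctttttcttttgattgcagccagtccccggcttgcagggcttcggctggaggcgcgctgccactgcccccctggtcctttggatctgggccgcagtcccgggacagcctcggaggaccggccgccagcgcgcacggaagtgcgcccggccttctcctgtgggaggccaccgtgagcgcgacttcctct
Itga1: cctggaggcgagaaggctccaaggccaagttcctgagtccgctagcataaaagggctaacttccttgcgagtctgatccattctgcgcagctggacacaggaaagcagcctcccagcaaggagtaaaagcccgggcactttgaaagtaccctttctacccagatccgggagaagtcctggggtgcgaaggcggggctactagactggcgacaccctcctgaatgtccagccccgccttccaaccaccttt

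A GC box stood 151 bases before the start of Itgb1 and 149 and 6 bases before that of Itga5, whereas the windows of Itgav and Itga1 held none. Of the 32841 windows of the same length in the table with every base called, 32.7% held one. The E-box letters (CANNTG, either strand) occurred once in Itga5 and once in Itga1 and in neither Itgb1 nor Itgav, against 66.2% of all windows. None of the 4 windows held an AP-1 motif (TGANTCA), a CArG box or an MEF2 box on either strand, which 6.75%, 1.47% and 2.92% of all windows held. The windows were rich in G and C, at 68% in Itgb1, 64.4% in Itgav, 57.6% in Itga1 and 55.6% in Itga5, against a median of 52.4% over all windows. These are matches of letters and say nothing of which factors bind there.

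In WT mice Itgb1 and Itgb1bp2 were the most abundant members of the striated muscles, and Itga7 and Itga6 set muscle apart from liver. Levels were compared between genes per length, as CPM per kilobase of exon. In the WT heart Itgb1 reached 131 ± 5.51 (SD, n = 4) and Itgb1bp2 113 ± 14.5 CPM per kb, and in the WT gastrocnemius Itgb1bp2 reached 142 ± 13.5 and Itgb1 83.2 ± 5.43 (n = 4). Itgb3, the platelet and macrophage β chain, was the lowest in all 3 muscles, at 0.575 ± 0.0626 CPM per kb in the WT gastrocnemius. The order of Itga7 and Itgb5 depended on the length used: over merged exons Itga7 stood at 17.6 ± 1.05 and Itgb5 at 20.7 ± 1.91 CPM per kb in the WT gastrocnemius, but over the longest transcript Itga7 stood at 35.4 and Itgb5 at 22.5.

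**Figure D1:**
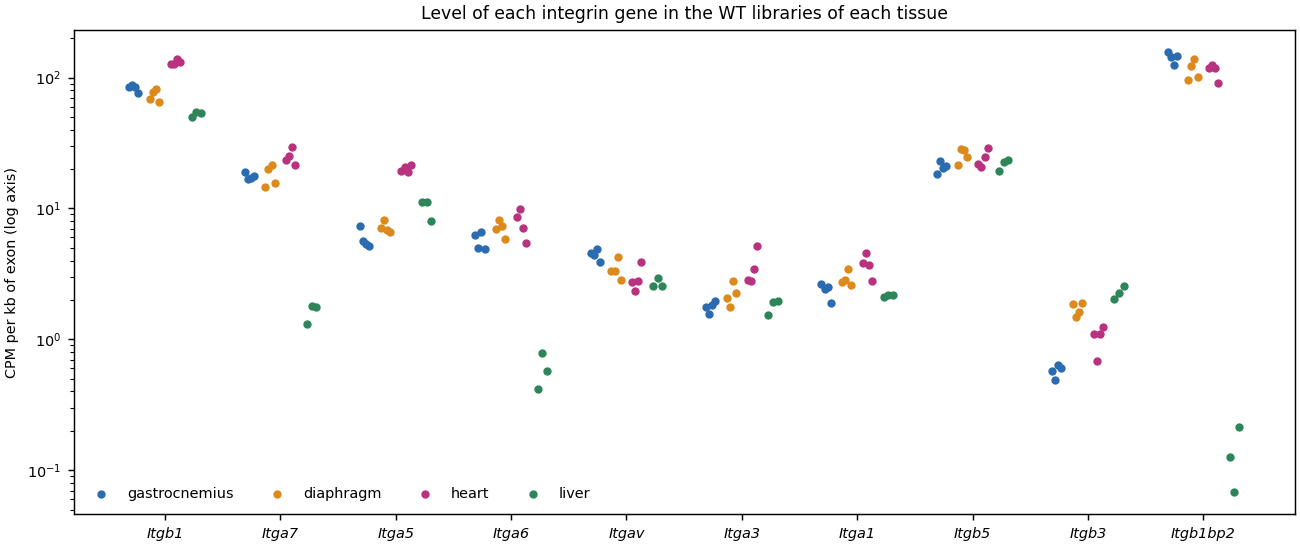
Level of each member in the WT libraries, in CPM per kb of exon on a log axis, with 1 point for each library (4 for each muscle, 3 for the liver). The mean of Itgb1bp2 is 142 CPM per kb in the gastrocnemius and 0.137 in the liver, and the means of Itgb5 lie between 20.7 and 25.7 in all 4 tissues.

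Of the laminin receptor chains Itga7 and Itga6 were higher in each muscle than in the liver. Itga7, the main laminin receptor chain of fibres, was at 24.8 ± 3.55 CPM per kb in the WT heart, 18 ± 3.36 in the diaphragm, 17.6 ± 1.05 in the gastrocnemius and 1.62 ± 0.279 in the liver, and the diaphragm and gastrocnemius were not told apart (adjusted p = 0.99, edgeR quasi-likelihood test), although with library totals in place of the scaling used here the gastrocnemius was lower by a log2 difference of −0.51 (adjusted p = 0.0037). Itga6, the laminin receptor chain of many epithelia and vessels, was at 7.72 ± 1.89, 7.08 ± 0.932 and 5.69 ± 0.879 CPM per kb in heart, diaphragm and gastrocnemius, no pair of which passed the test, and at 0.590 ± 0.184 in the liver. Itgb1bp2 was present at 0.137 ± 0.0741 CPM per kb in the WT liver, from 3 to 8 reads a library. Its 3 muscle levels were not told apart by edgeR (adjusted p between 0.071 and 0.90). By DESeq2, the tool of the study, the gastrocnemius was higher than the heart (adjusted p = 0.023) and the diaphragm (adjusted p = 0.028).

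The fibronectin receptor chain Itga5 was present in all 4 tissues and highest in the heart. Its level was 20.1 ± 1.09 CPM per kb in the WT heart, 10.1 ± 1.79 in the liver, 7.13 ± 0.666 in the diaphragm and 5.88 ± 0.983 in the gastrocnemius, and the 2 skeletal muscles were not told apart (adjusted p = 0.12). Itgb1 had the order heart (131), gastrocnemius (83.2), diaphragm (72.9) and liver (52.7). Again edgeR found no difference between the skeletal muscles past the threshold (adjusted p = 0.066). For gastrocnemius against diaphragm DESeq2 gave a log2 difference of 0.26 (adjusted p = 0.010), and edgeR with library totals gave −0.29 (adjusted p = 0.016). Itga3 and Itga1 were highest in the heart as well, at 3.56 ± 1.12 and 3.73 ± 0.734 CPM per kb, and the laminin receptor chain Itga3 was not told apart between liver and gastrocnemius (adjusted p = 0.80) or liver and diaphragm (adjusted p = 0.15).

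The αv partners ran otherwise. Itgav was highest in the WT gastrocnemius, at 4.46 ± 0.437 CPM per kb against 3.43 ± 0.573 in the diaphragm (log2 difference 0.41, adjusted p = 0.032, and −0.10 when libraries were scaled by their totals alone), 2.94 ± 0.677 in the heart and 2.70 ± 0.226 in the liver. Itgb3 was highest in the liver, at 2.27 ± 0.260 CPM per kb, next in the diaphragm at 1.71 ± 0.194, which did not differ from the liver past the threshold (adjusted p = 0.075), and lower in the heart (1.03 ± 0.242) and the gastrocnemius. WT diaphragm 3, with the lowest hepatocyte sum (351 CPM), had 9.49 CPM of Itgb3, and the other 3 had 8.80 to 11.2. Itgb5 passed the test between no 2 tissues with the scaling used here, and with library totals alone it did in some.

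Between WT tissues most genes of the whole table differ, and the members were read against that. Of the 10 members 7 passed the test between heart and gastrocnemius, where 61.3% of all genes tested did, and 6 between heart and diaphragm, where 51.7% did. Between heart and liver 8 passed (76.4% of all genes), between gastrocnemius and liver 7 (79.5%), and between diaphragm and liver 7 (76.1%). The 2 skeletal muscles gave 2 calls among the members, Itgav and Itgb3, where 54.4% of all genes passed with the same scaling. With scaling by library totals the members gave 8 calls, to which the 54.4% does not apply. Apart from that last pair, the members' shares lay close to those of all genes.

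In the gastrocnemius of Mtm1-/y mice 5 of the 10 genes rose (Itgb1, Itga7, Itga5, Itgav and Itgb3), 1 fell (Itga1) and 4 did not pass the test (edgeR quasi-likelihood test, Benjamini-Hochberg adjusted p under 0.05). In this muscle 29.0% of all 15456 genes tested passed, 14.1% as higher and 14.9% as lower. With libraries scaled by their totals alone, the calls over all genes were 7647 higher and 647 lower, and those among the members 6 higher and 0 lower. The median log2 fold change was 0.22 over the members and 0.02 over all genes. No member changed by more than 1 on the log2 scale, a rule that 6.63% of all genes met.

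The β1 chain and its laminin partner α7 rose together. Itgb1 stood at 347, 359.9, 344 and 308 CPM in WT gastrocnemius 1 to 4 and at 523, 505, 427 and 438 CPM in Mtm1-/y gastrocnemius 1 to 4. The log2 fold change was 0.49 ± 0.09 (SE; adjusted p = 0.0029). Every Mtm1-/y library lay above every WT library, which held for 5 members here and for 30.7% of all genes tested, in either direction. Itga7 stood at 154, 135, 138 and 143 CPM in WT and at 284, 210.0, 204 and 192 CPM in Mtm1-/y mice. Again the groups did not overlap, with Mtm1-/y gastrocnemius 1 the highest, and the log2 fold change was 0.66 ± 0.12 (adjusted p = 0.0029).

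The largest fold among the members was that of the fibronectin receptor chain Itga5. Its values were 36.1, 27.9, 26.2 and 25.7 CPM in WT and 66.4, 52.1, 61.6 and 39.1 CPM in Mtm1-/y libraries, and the groups lay apart by the small gap between WT 1 and Mtm1-/y 4. The log2 fold change was 0.93 ± 0.17 (adjusted p = 0.0031), or 1.89-fold as a ratio of means. Its level in Mtm1-/y gastrocnemius, 11.1 ± 2.43 CPM per kb, remained below the 20.1 of the WT heart.

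Itgav and Itgb3, which form a receptor for vitronectin and other RGD proteins, rose by less. Itgav went from 49.4, 47.5, 53.1 and 41.8 CPM in WT to 63.3, 75.3, 55.9 and 57.3 CPM in Mtm1-/y mice, a log2 fold change of 0.40 ± 0.11 (adjusted p = 0.020). Itgb3 went from 3.39, 2.88, 3.73 and 3.57 CPM to 5.51, 4.76, 5.01 and 3.75 CPM, a log2 fold change of 0.50 ± 0.15 (adjusted p = 0.035). In both genes the groups were separate, in Itgb3 by a margin between 3.73 and 3.75 CPM. Neither was called in a fit over all 30 libraries (adjusted p = 0.086 for Itgav and 0.079 for Itgb3), and Itgb3 was also not called without a filter on low counts (0.085) or with the replicate block (0.062).

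The collagen receptor chain Itga1 moved the other way. It stood at 49.3, 44.9, 46.9 and 35.2 CPM in WT and at 26.3, 34.1, 37.9 and 28.1 CPM in Mtm1-/y libraries, with 3 of the 4 Mtm1-/y values below the lowest WT value. It fell by 0.47 ± 0.14 on the log2 scale (adjusted p = 0.032). The value rests on the scaling: with library totals the median of all genes in this muscle moved by 0.34, every member moved up with it, and Itga1 gave −0.14 (adjusted p = 0.49) while Itgb5 gave 0.31 (adjusted p = 0.028). Of the 10 members Itga1 had the lowest log2 fold change under either scaling.

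**Figure D2:**
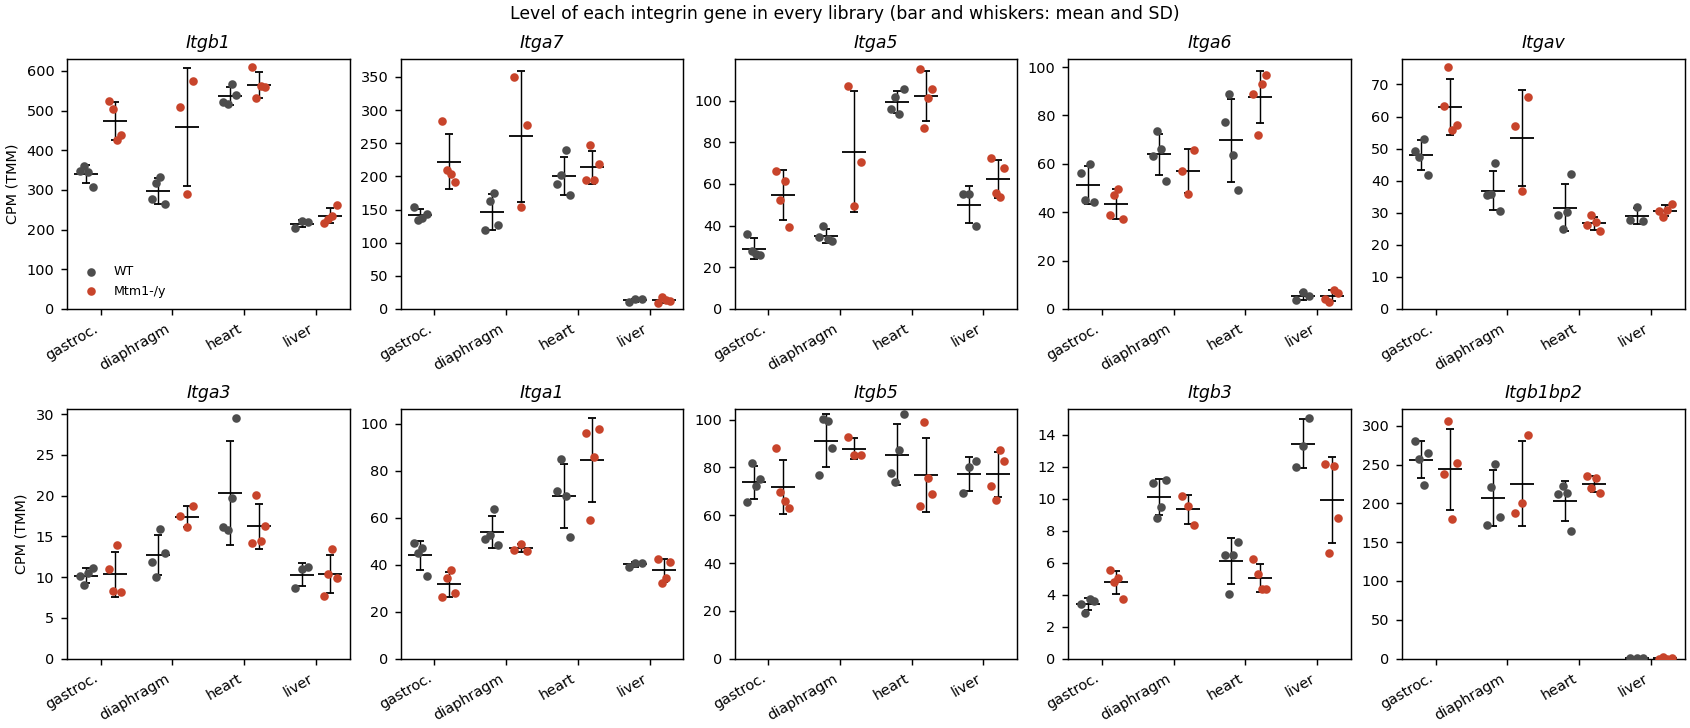
CPM of each of the 10 genes (vertical axes, from 0) in every library by tissue and genotype, with points for libraries and a bar and whiskers for the mean and SD of 3 or 4 libraries. Itga5 lies at 25.7 to 36.1 CPM in WT and 39.1 to 66.4 in Mtm1-/y gastrocnemius, and at 93.8 to 106 in WT heart.

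Itga6, Itga3, Itgb5 and Itgb1bp2 did not pass the test in the gastrocnemius. Itga6 had a log2 fold change of −0.24 ± 0.13 (adjusted p = 0.21), with 51.4 ± 7.93 CPM in WT and 43.3 ± 6.21 in Mtm1-/y mice (SD, n = 4 each). Itga3 (0.04 ± 0.17), Itgb5 (−0.03 ± 0.11) and Itgb1bp2 (−0.06 ± 0.14) had adjusted p between 0.78 and 0.89. Melusin mRNA ranged from 223 to 281 CPM in WT and from 180.1 to 307 CPM in Mtm1-/y libraries, the wider spread being that of the mutants.

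How firmly each call stands was seen by leaving out 1 library at a time, which gave 3 to 5 calls in place of 6. Itgb1, Itga7 and Itga5 passed in all 8 such fits, with log2 fold changes of 0.44 to 0.55, 0.52 to 0.73 and 0.83 to 1.07. Itgav passed in 6, failing without WT 2 or WT 4, Itga1 in 3 and Itgb3 in 2. All 6 kept their direction in these fits.

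Markers of other cells moved in the same muscle. All 6 leukocyte and macrophage markers were called higher, with a summed level of 20.4 to 34.4 CPM in WT and 63.5 to 81.3 in Mtm1-/y gastrocnemius, and the 1 platelet marker tested, Pf4, rose as well. Higher calls were also made for 5 of 6 adipocyte markers (20.7 to 97.5 against 80.9 to 169 CPM) and 3 of 6 fibroblast markers (2059 to 7571 against 2182 to 9103 CPM). Lower calls were made for 3 of 6 endothelial markers (406 to 525 against 291 to 376 CPM), 3 of 6 smooth muscle and pericyte markers (669.6 to 806 against 484 to 598 CPM), 3 of 6 satellite cell markers (58.0 to 69.0 against 50.3 to 96.7 CPM) and 1 of 6 hepatocyte markers. No Schwann cell marker of 6 was called by edgeR or DESeq2, nor had one an unadjusted p under 0.05. Of the 7 fibre markers 5 fell and 2 rose, and their sum went from 184520 to 221802 CPM down to 119431 to 128012 CPM. Of the 4 cardiomyocyte markers tested Tnnt2 and Tnni3 rose and Actc1 fell, with Nppa at 0 in every WT and Myl7 at 0 in every Mtm1-/y gastrocnemius. The part of these cells in the integrin values was not tested.

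**Figure D3:**
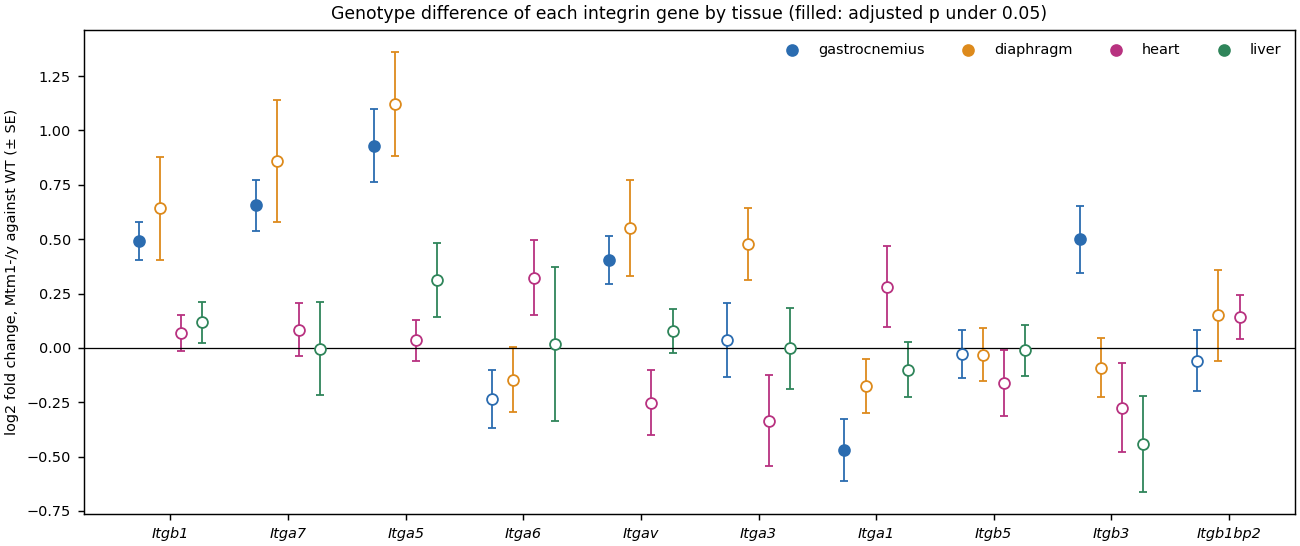
Fitted log2 fold change of Mtm1-/y against WT (vertical axis) for each member (horizontal axis), coloured by tissue, with whiskers for 1 SE and filled points for an adjusted p under 0.05. The filled points are 6 gastrocnemius values, from −0.47 for Itga1 to 0.93 for Itga5, and Itgb1bp2 has no liver point.

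In the diaphragm no member passed the test with edgeR, where 2 of 16796 genes did (0.0119%). By unadjusted p under 0.05 there were 5 members, all higher in Mtm1-/y mice (Itga5, Itga7, Itga3, Itgb1 and Itgav), against 10.8% of all genes. DESeq2 called 1 member, Itga5, and 2.37% of all genes. The median log2 fold change was 0.31 over the members and −0.01 over all genes.

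Itga5 stood at 34.7, 39.9, 33.6 and 32.5 CPM in WT diaphragm 1 to 4 and at 107, 49.3 and 70.5 CPM in Mtm1-/y diaphragm 1, 2 and 4. The Mtm1-/y libraries all lay above the WT libraries, and the log2 fold change was 1.12 ± 0.24 (edgeR adjusted p = 0.27, DESeq2 adjusted p = 0.0033). Without Mtm1-/y diaphragm 2, which leaves Mtm1-/y diaphragm 1 and 4, it was 1.34, with an edgeR adjusted p of 0.042. That was the highest of 7 fits that left out 1 library each, and the only one in which Itga5 was called. Over these fits the log2 fold change ranged from 0.80 to 1.34, with edgeR adjusted p up to 0.67. Itga3, with 10.1 to 15.8 CPM in WT and 16.1 to 18.7 in Mtm1-/y mice, was the other member without overlap, against 9.97% of all genes, and its log2 fold change was 0.48 ± 0.17 (adjusted p = 0.39), or 0.52 without Mtm1-/y diaphragm 2.

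Itgb1, Itga7 and Itgav were split among the mutants. Itgb1 was at 278, 316, 332 and 264 CPM in WT and at 509, 290.2 and 575 CPM in Mtm1-/y diaphragm 1, 2 and 4. Itga7 was at 118, 163, 175 and 127 CPM in WT and at 349.5, 154 and 278 CPM in Mtm1-/y mice. In both genes Mtm1-/y diaphragm 2, the library with the most liver transcripts, lay within the WT range and the other 2 lay above it. The log2 fold changes were 0.64 ± 0.24 for Itgb1 (adjusted p = 0.41) and 0.86 ± 0.28 for Itga7 (adjusted p = 0.36), and without that library they were 0.88 and 1.12 (adjusted p = 0.078 for each). Itgav was at 35.7, 35.9, 45.4 and 30.6 CPM in WT and at 57.0, 36.8 and 66.0 CPM in Mtm1-/y mice, again with Mtm1-/y diaphragm 2 within the WT range, and its log2 fold change was 0.55 ± 0.22 (adjusted p = 0.44), or 0.75 without that library (adjusted p = 0.12). Over the 7 fits that left out 1 library each, the log2 fold changes ranged from 0.46 to 0.88 for Itgb1, 0.60 to 1.12 for Itga7 and 0.38 to 0.75 for Itgav. In none of these fits was any of them called. The WT libraries with hepatocyte sums of 20000 to 29936 CPM had 264 to 316 CPM of Itgb1, and WT diaphragm 3, with a sum of 351, had 332 CPM. Leaving out 3965 genes that are at least 50-fold higher in WT liver than in WT gastrocnemius gave 0 calls among the members as well.

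Itga6, Itga1, Itgb5, Itgb3 and Itgb1bp2 had log2 fold changes between −0.17 and 0.15 in the diaphragm, and between −0.22 and 0.22 without Mtm1-/y diaphragm 2. Itgb3, which rose in the gastrocnemius, was at 8.80 to 11.2 CPM in WT and 8.34 to 10.1 in Mtm1-/y diaphragm. Neither edgeR nor DESeq2 called a leukocyte and macrophage marker there, and none had an unadjusted p under 0.05, at 101 to 209.7 CPM in WT and 127 to 254 CPM in Mtm1-/y mice. Fibroblast markers summed to 1173 to 2410 CPM in WT and 2418 to 4736 CPM in Mtm1-/y diaphragm, with no edgeR call among the 6 (4 at an unadjusted p under 0.05, 3 by DESeq2), and their part in the integrin values was not tested.

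In the heart none of the 10 genes passed the test, where 1 of 15238 genes did (0.00656%), and none had an unadjusted p under 0.05 (8.88% of all genes), nor did DESeq2 call any (0.453% of all genes). Itgb1 lay at 522, 516, 566 and 538 CPM in WT and at 609.5, 531, 562 and 559 CPM in Mtm1-/y heart, a log2 fold change of 0.07 ± 0.08. Itga7 (0.08 ± 0.12) and Itga5 (0.03 ± 0.10) were as close. The largest differences were −0.34 ± 0.21 for Itga3, 0.32 ± 0.17 for Itga6, 0.28 ± 0.19 for Itga1 and −0.27 ± 0.21 for Itgb3, each smaller than the spread allows to be called.

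No member was without overlap between the genotypes in the heart, which 4.26% of all genes were. WT heart 4 was the highest of the WT heart libraries in Itga5 (106 CPM), Itgav (42.0), Itga3 (29.6), Itgb5 (102) and Itgb3 (7.31). It was the lowest in Itga7 (172), Itga6 (49.4), Itga1 (51.8) and Itgb1bp2 (164). Without it the log2 fold changes were −0.09 for Itga3, 0.19 for Itga6, 0.17 for Itga1 and −0.17 for Itgb3. Those of Itga7 and Itga5 were then 0.02 and 0.07. Adipocyte markers were at 29.9 to 111 CPM in WT and 4.70 to 12.0 CPM in Mtm1-/y heart, all 6 with an unadjusted p under 0.05, none called by edgeR and all 6 called by DESeq2. Hepatocyte markers were at 1.52 to 29.7 CPM in WT and 33.8 to 109 CPM in Mtm1-/y heart, all 6 with an unadjusted p under 0.05, none called by edgeR and 1 by DESeq2. Fibroblast markers were at 1159 to 2698 CPM in WT and 1196 to 1409.5 CPM in Mtm1-/y heart, all 6 with a negative log2 fold change, 3 with an unadjusted p under 0.05 and none called by edgeR or DESeq2. The part of these cells in the integrin values was not tested. Satellite cell markers were almost absent, with sums under 1 CPM and Pax7 at 0 in all 8 hearts.

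The genotype effects of heart and gastrocnemius were then set against each other in 1 fit. For 5 members the difference itself passed the test, where 19.8% of all 16627 genes did. The effect in the heart was lower than in the gastrocnemius by 0.40 ± 0.12 log2 units for Itgb1 (adjusted p = 0.025), by 0.56 ± 0.18 for Itga7 (0.040), by 0.88 ± 0.21 for Itga5 (0.0090) and by 0.64 ± 0.19 for Itgav (0.032). For Itga1 it was higher, by 0.77 ± 0.25 (0.042). With library totals 5 members passed as well, with Itgb3 in place of Itga1 and all of them lower in the heart. Far more of all genes passed with that scaling, as counted in the closing paragraph, so the 19.8% does not apply to it. Itgb3 (−0.76 ± 0.26) had an adjusted p of 0.051 and Itga6 (0.57 ± 0.23) of 0.093. By DESeq2 Itgb3 (−0.70 ± 0.28) had an adjusted p of 0.054, and Itga6 (0.63 ± 0.24) passed at 0.044.

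Of these the Itga5 difference passed in all 16 fits without 1 library, and the number of calls among the members ranged from 1, without Mtm1-/y gastrocnemius 1, to 6, without WT heart 2. With the replicate block Itga5 was the 1 member called. Between heart and diaphragm no difference passed (0.00573% of all genes; 5 members and 10.6% of all genes at an unadjusted p under 0.05; 1 member, Itga5, and 1.17% of all genes by DESeq2). Without Mtm1-/y diaphragm 2 there were 3, Itgb1 (−0.79), Itga7 (−1.02) and Itga5 (−1.29). These 3 calls rest on leaving out that library, since leaving out any other gave 0. The share of all genes called in that fit is not given here. Between gastrocnemius and diaphragm no member passed (0.280% of all genes; 1 member and 12.8% of all genes at an unadjusted p under 0.05; 0 members and 2.04% of all genes by DESeq2). The differences there were smaller than their SE for 7 of the 10 members, which does not show that the muscles responded alike.

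In the liver none of the 9 members tested passed, as did none of 14305 genes (0%), Mtm1 included (log2 fold change −1.60 ± 0.23, adjusted p = 0.37), and none had an unadjusted p under 0.05 (4.24% of all genes) or a DESeq2 call (0.163% of all genes). Itga5 lay at 55.2, 55.0 and 39.9 CPM in WT and at 72.5, 55.5, 53.8 and 67.5 CPM in Mtm1-/y liver (0.31 ± 0.17). Itgb3 lay at 12.0, 13.3 and 15 CPM in WT and 12.2, 6.62, 12.0 and 8.81 in Mtm1-/y liver (−0.44 ± 0.22). Scaled within the tissue, the Mtm1-/y values of Itgb1 lay above all WT values, as 6.09% of all genes did in either direction, but on the scale of all 30 libraries they overlapped.

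Ratios within a library do not depend on how libraries are scaled. Those of Itga7 to Itga6 and to Itga1 did not overlap between the genotypes in the gastrocnemius and the diaphragm. Itga7 was not alone in this. The ratio of Itga5 to Itga6 was 0.80 to 1.17 in WT and 1.93 to 3.12 in Mtm1-/y gastrocnemius, and 0.93 to 1.12 and 1.89 to 3.43 in the diaphragm. The share of all gene pairs that behave so was not counted. The level of Itga7 per kb was 2.56 to 3.61 times that of Itga6 in WT gastrocnemius and 4.58 to 8.13 times in Mtm1-/y gastrocnemius. In the diaphragm the same ratio was 2.09 to 2.94 in WT and 3.60 to 6.83 in Mtm1-/y mice. Mtm1-/y diaphragm 2 had a ratio above every WT library through its low Itga6. Its Itga6, at 47.7 CPM, lay below the WT range of 53.1 to 73.4 CPM, and its Itga7 lay within the WT range. In the heart the ratios overlapped, at 2.54 to 4.21 in WT and 2.34 to 3.83 in Mtm1-/y mice.

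Against the collagen receptor chain the same was seen. Itga7 was 6.74 to 9.31 times Itga1 in WT and 12.4 to 24.8 times in Mtm1-/y gastrocnemius, 5.36 to 7.10 and 7.24 to 17.4 times in the diaphragm, and 5.46 to 7.96 and 4.64 to 9.64 times in the heart. Against its own partner Itgb1 the ratio moved little, from 0.212 ± 0.0204 to 0.236 ± 0.0281 in the gastrocnemius (SD, n = 4 each), with overlap. Of the summed level of the 6 α chains among the members, Itga7 made up 46.6% ± 2.24 in WT and 52.0% ± 3.94 in Mtm1-/y gastrocnemius. Itga5 made up 15.5% ± 1.61 and 20.9% ± 2.33, Itga6 15.03% ± 1.63 and 9.19% ± 1.56, and Itga1 6.26% ± 0.635 and 3.27% ± 0.689. Other α chains were not in the sum. The shares depend on the length used, as the longest transcript has 4020 of 8092 merged bases in Itga7 and 4415 of 4933 in Itga5. These ratios and shares restate the levels given above as descriptions and were given no test.

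**Figure D4:**
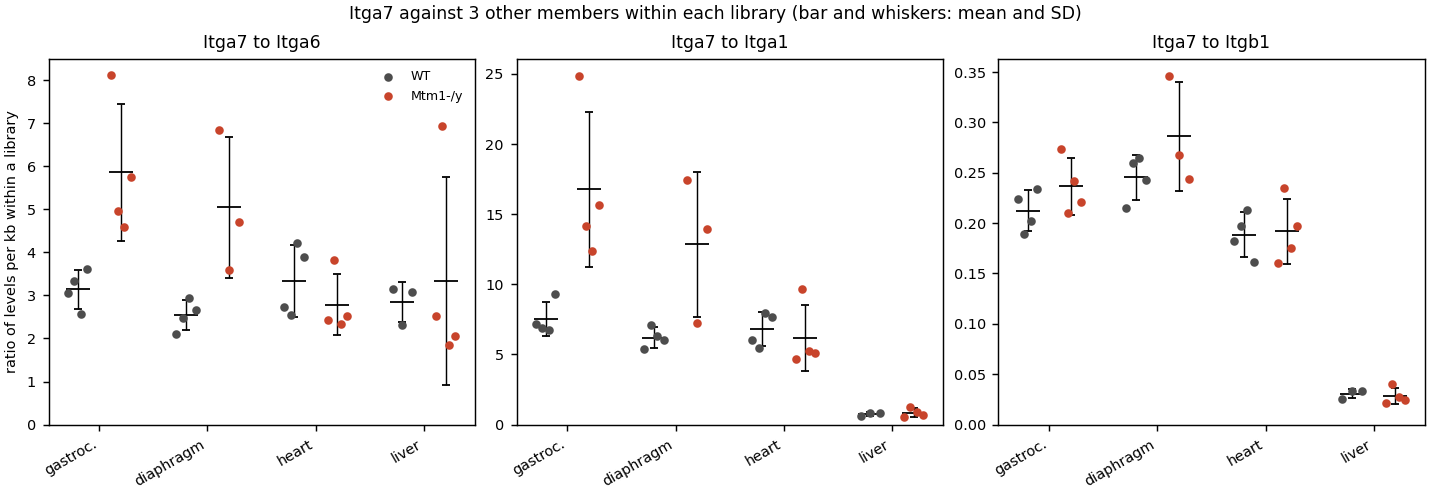
Ratio of the Itga7 level per kb to that of Itga6, Itga1 and Itgb1 within each library (vertical axes, from 0), by tissue and genotype, with points for libraries and a bar and whiskers for the mean and SD. In gastrocnemius and diaphragm the Mtm1-/y points for Itga6 and Itga1 lie above all WT points, and for Itgb1 the groups overlap in all 4 tissues.

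The other genes of the pathway were counted by lists, beside which stand 14.1% of all genes called higher and 14.9% called lower in the gastrocnemius. At an unadjusted p under 0.05 were 10.8%, 8.88% and 4.24% of all genes in diaphragm, heart and liver, and DESeq2 called 2.37%, 0.453% and 0.163%. Of the 17 other integrin subunits 16 were tested in the gastrocnemius, and 5 rose and 1 fell. The 4 named by the smallest p were the leukocyte chains Itgax (log2 fold change 3.18 ± 0.37, from 0.127 to 1.18 CPM) and Itgb2 (1.65 ± 0.21, from 1.38 to 4.30 CPM), the α4 chain Itga4 (−0.63 ± 0.09, from 14.2 to 9.09 CPM), and Itga9 (1.11 ± 0.18, from 14.6 to 31.1 CPM), a receptor chain for tenascin. The median of the list was 0.50, beside 0.02 over all genes. In diaphragm, heart and liver edgeR called none of the list, and at an unadjusted p under 0.05 there were 1, 4 and 0 (1, 0 and 0 by DESeq2).

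On the side of the ligands, 13 genes of a list of fibronectin and other integrin ligands were tested in the gastrocnemius, of which 7 rose and 1 fell. Postn, a matrix protein of healing tissue, went from 39.9 ± 18.7 to 295 ± 93.8 CPM (2.90 ± 0.34), Ccn1 from 28.4 to 71.4 CPM (1.34 ± 0.26), Fn1, fibronectin itself, from 142 ± 48.0 to 305 ± 64.0 CPM (1.12 ± 0.23), and vitronectin, Vtn, from 35.8 to 26.1 CPM (−0.44 ± 0.07). The median log2 fold change of these 13 was 0.90 in the gastrocnemius, 0.88 in the diaphragm and −0.23 in the heart, where edgeR called none in either (5 and 1 at an unadjusted p under 0.05; 5 and 0 by DESeq2).

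Among 24 adaptors of focal adhesions tested in the gastrocnemius 5 rose, 6 fell and 13 were not called. The 2 talins went apart: Tln2, the form of mature muscle that links integrins to actin, fell from 218 ± 17.5 to 131 ± 10.9 CPM (−0.73 ± 0.08, adjusted p = 0.00037), while Tln1 was among those that rose. Fermt3, the kindlin of blood cells, rose from 1.06 to 2.64 CPM (1.32 ± 0.17), Src from 6.74 to 10.1 CPM (0.60 ± 0.09) and Flnc, the filamin of muscle, from 1148 ± 186 to 2428 ± 585 CPM (1.09 ± 0.18). In the diaphragm Tln2 was at 121 and 120.1 CPM in WT and Mtm1-/y mice.

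Of 20 genes of integrin trafficking tested in the gastrocnemius 4 rose, 3 fell and 13 were not called. Arf6, a small GTPase of integrin recycling, rose from 8.60 to 15.5 CPM (0.86 ± 0.13), the endocytic adaptor Dab2 from 18.1 to 28.1 CPM (0.64 ± 0.12) and Rab11fip1 from 0.409 to 1.76 CPM (2.11 ± 0.48). Rab4a, of the short recycling loop, fell from 20.7 to 14.9 CPM (−0.46 ± 0.08). The median log2 fold change was 0.03 over these genes, 0.08 over the adaptors and 0.02 over all genes. With edgeR neither list had a call in the other 3 tissues (adaptors: 6, 3 and 1 at an unadjusted p under 0.05 in diaphragm, heart and liver, and 1, 0 and 0 by DESeq2; trafficking genes: 1, 1 and 0, and 0 by DESeq2).

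Genes whose pattern over the 30 libraries was most like a member were sought by Pearson's r of log2(CPM + 1), and every gene whose mean over the libraries reached 5 CPM was searched. The points share tissues, so r mostly follows the differences between them, and no p is given. Itga7 was nearest to Cryab (r = 0.992), Hspb7 (0.991) and Enah (0.989), and Itgb1bp2 to Smpx, Txlnb and Hrc (0.997, 0.996 and 0.996). Itgb1 was nearest to Csrp3 (0.955), a Z-disc protein, Trp53bp1 (0.953) and Igf2r (0.949), and Itga5 to Stat3 (0.919), Actr3 (0.893) and Nt5c2 (0.888).

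Itga1 was nearest to Kdr (0.945), the endothelial receptor that is also in the marker list, to H2-T24 (0.933) and to Mndal (0.924), and Itga6 to Cav2, Fmnl3 and Ackr3 (0.989, 0.988 and 0.988). Itgav was nearest to Tpd52 (0.919), Dapk2 (0.910) and Myog (0.910), the myogenic factor myogenin. Itga3 was nearest to Zyx (0.843), Tgm2 (0.840) and Ezr (0.836), and Itgb3 to Sod3 (0.925), Fcna (0.912) and 2210016F16Rik (0.901). Itgb5, whose level hardly differed between tissues, had the lowest values, with Krt19 (0.691), Efemp1 (0.673) and Smim1 (0.665).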

How the data were processed

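Poly(A) RNA of 30 whole tissues was sequenced by the authors with a stranded mRNA kit as single-end reads of 50 bases. After trimming with cutadapt 1.10 and alignment by STAR 2.5.3a (mm10), they assigned reads to genes with htseq-count 0.6.1p1 in union mode against Ensembl 96, and deposited raw counts of 36103 genes, which carry no normalization. The strand setting is not given in the sources used here. Groups came from the sample labels. The 10 members and all gene lists were chosen with earlier results of these data known.

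Within each tissue, genes passing filterByExpr (minimum count 10) were scaled by TMM and tested between genotypes with the quasi-likelihood test of edgeR 4.0.16 in R 4.3.3, as differences of effects between 2 tissues, and between tissues in the 15 WT libraries. P-values were adjusted by Benjamini-Hochberg over all genes tested, with 0.05 as the threshold. DESeq2 1.42.0, the tool of the study, was an alternative. Levels are CPM with TMM factors over all 30 libraries, and per kb of merged exons of GENCODE M21. The libraries held 24873817 to 44289343 counts. No 2 replicates agreed within sampling noise (chi-square per degree of freedom of 11.3 or more in 42 pairs). The labels number the replicates without saying what the numbers share, so p-values measure the spread between these samples. The edgeR step was tested on simulated counts.

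All 10 members were named. Of each pathway list, up to 4 genes with the smallest p in the gastrocnemius among those called were named, and of each member the 3 genes of highest correlation. The list of laminin chains is not reported here. Talin 1 and the markers Pf4, Tnnt2, Tnni3, Actc1, Nppa, Myl7 and Pax7 were named after their values were seen. Alternatives were DESeq2, its size factors within edgeR, no filter, 1 fit over all 30 libraries, the fold rule of the study, the replicate block, leaving out genes enriched in liver, leaving out each library in turn, the longest transcript as length, and, chosen after seeing the data for the genotype effects, library totals without a scaling factor.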

Additional observations from a re-analysis of the deposited data

Results flagged for a closer look

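For 5 members the genotype effect itself differed between heart and gastrocnemius by the test of the difference (edgeR quasi-likelihood test, adjusted p of 0.042 or less), with heart minus gastrocnemius at −0.40 for Itgb1, −0.56 for Itga7, −0.88 for Itga5, −0.64 for Itgav and 0.77 for Itga1 on the log2 scale. Itga5 passed in all 16 fits that left out 1 library, Itgb1 in 14, Itgav in 9, Itga7 in 7 and Itga1 in 5. With the replicate block Itga5 was called and the other 4 were not.

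In the Mtm1-/y liver 1 library lay far from the other 3 in Itgb1bp2, with 1.57 CPM (34 reads) in Mtm1-/y liver 2 against 0.0424 to 0.191 CPM. It was the only such library in 60 sets of a member and a group of 4 libraries, where chance alone would give about 1 set in 20. The groups of 3 libraries, WT liver and Mtm1-/y diaphragm, were not searched. The summed skeletal fibre markers ranged from 7.12 to 121 CPM over the Mtm1-/y livers, and their part in the value was not tested.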

How the results depend on the processing

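In the gastrocnemius, Itgb1, Itga7 and Itga5 were called under every setting but the fold rule of the study, which left 0 of the 6 calls. Without 1 library each, the calls among the members ranged from 3 to 5 in the gastrocnemius, from 0 to 1 in the diaphragm, from 1 to 6 for heart minus gastrocnemius and from 0 to 3 for heart minus diaphragm, and stayed at 0 in heart and liver and for gastrocnemius minus diaphragm. Between WT tissues they ranged from 7 to 8 (heart and gastrocnemius), 4 to 7 (heart and diaphragm), 8 to 8 (heart and liver), 1 to 5 (gastrocnemius and diaphragm), 7 to 7 (gastrocnemius and liver) and 6 to 9 (diaphragm and liver). The diaphragm gave 1 call with DESeq2 and 3 in a fit over all 30 libraries. The difference heart minus gastrocnemius gave 3 calls with DESeq2 size factors and 2 without a filter, and heart minus diaphragm gave 1 with DESeq2. WT gastrocnemius against diaphragm gave 4 with DESeq2, 8 with library totals and 1 without a filter. The shares of all genes under the same settings were not set beside these counts of members, so they are not read against that background. Scaling by library totals turned Itgb5 in the gastrocnemius to 0.31, WT gastrocnemius against diaphragm to −0.29 for Itgb1, −0.51 for Itga7 and −0.10 for Itgav, and Itga5 in WT diaphragm against liver to 0.00516. It also moved the median log2 fold change of all genes in the gastrocnemius from 0.02 to 0.35.

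Correlations of same-numbered samples' deviations ranged from 0.00798 to 0.112 for WT and Mtm1-/y gastrocnemius, −0.785 to 0.618 for diaphragm, −0.613 to 0.349 for heart, −0.000974 to 0.42 for liver, 0.0228 to 0.206 for WT heart and gastrocnemius and 0.0173 to 0.211 for WT heart and diaphragm. In no comparison did every pair exceed 0.1, so the numbers were not taken as pairs. With the replicate block there were 5 calls in the gastrocnemius, without Itgb3, 1 for heart minus gastrocnemius (Itga5), and 0 in the diaphragm, heart and liver and for the other 2 differences. With longest transcripts in place of merged exons most levels per kb rose by more than their SD, since the lengths are shorter.

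Over all genes the calls were 4479 in the gastrocnemius, 8294 with library totals and 2925 in the fit over all 30 libraries. They were 2, 438 (DESeq2) and 274 (all 30 libraries) in the diaphragm, with 162 without Mtm1-/y diaphragm 2. In the heart they were 1, 85 (DESeq2) and 5 (all 30 libraries), and in the liver 0, 25 (DESeq2), 14 (all 30 libraries) and 8 (no filter). For heart minus gastrocnemius they were 3297, 6982 (library totals) and 2080 (replicate block), for heart minus diaphragm 1 and 217 (DESeq2), and for gastrocnemius minus diaphragm 49, 376 (DESeq2), 273 (library totals), 27 (no filter) and 3 (replicate block). The causes were not tested.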
